A study of Rattus norvegicus with 54 samples.

Results

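The collagen VI chains Col6a1, Col6a2, Col6a3, Col6a4, Col6a5 and Col6a6 were followed through the rat left ventricle 1 week after surgery. All 6 symbols were found among the 40319 genes listed in each of the 54 count tables. They were chosen by their measured values in the comparison of cell sheet-treated with untreated MI hearts in the infarct and border zones, so the chains' values in this comparison are given as a description, without p-values, and nothing is read from how many of them were called there. Female athymic rats of the strain F344/NJcl-rnu/rnu, 8 weeks old, underwent a sham operation, ligation of the left anterior descending coronary artery with no treatment (MI), or the same ligation followed by a sheet of human cells laid on the ischemic area (cell sheet). Each of the 3 groups held 6 hearts, and every heart gave a piece of the infarct, the border and the remote zone of the left ventricle below the ligature. The nude strain carries no mature T cells, and the sheet was a bi-level construct of human endothelial progenitor cells and human smooth muscle cells. Reads were aligned to the rat genome alone, so that human transcripts of the sheet were not analysed here, and whether human reads were counted on the rat genes was not tested. The methods describe separate hearts, but a label numbers the libraries as technical replicates, and if that were so the p-values would measure only the spread between libraries.

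Collagen VI forms a beaded microfibril network in the matrix directly around cells, where it links the cell surface to fibrillar collagens, basement membranes and small proteoglycans. Its unit is a heterotrimer of the Col6a1, Col6a2 and Col6a3 products, and the related Col6a4, Col6a5 and Col6a6 products are thought to take the place of the Col6a3 chain. Fibroblasts are its main source in many tissues, and the carboxyl-terminal piece cut from the Col6a3 chain, called endotrophin, is a signalling fragment. In the RefSeq annotation of the rat, Col6a1 and Col6a2 are near neighbours on chromosome 20 with only noncoding genes between them, Col6a3 stands alone on chromosome 9, and Col6a6, Col6a5 and Col6a4 follow each other on chromosome 8. The lncRNA LOC103693167 overlaps Col6a5 there, and as the strand setting of the counting is not given in the sources used here, reads from the overlap could belong to either gene.

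The sequences ahead of the transcript start are shown for a chain that rose with MI in every zone (Col6a1), a chain with few counts in sham hearts and many in cell sheet border zones (Col6a5) and a chain that did not follow Col6a1 (Col6a6), since the results below turn on these different courses. Each is the run of 250 bases before the start in RefSeq (GRCr8), 5′ to 3′ on the strand of the gene, at chr20:11905440-11905689 (+) for Col6a1, chr8:115462845-115463094 (-) for Col6a5 and chr8:115352162-115352411 (-) for Col6a6. The annotation used for the counts was that of another build, mRatBN7.2. Capitals mark matches, on either strand, to a GC box motif (GGGCGG), the motif of the TATA box (TATAAA), an AP-1 site (TGANTCA), a TEAD site (GGAATG) or a C/EBP site (TTGCNNAA).
Col6a1: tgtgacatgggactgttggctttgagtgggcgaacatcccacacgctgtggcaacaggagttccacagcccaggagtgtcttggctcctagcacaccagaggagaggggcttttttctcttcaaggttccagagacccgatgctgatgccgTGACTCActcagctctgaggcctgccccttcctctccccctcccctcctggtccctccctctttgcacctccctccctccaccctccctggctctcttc
Col6a5: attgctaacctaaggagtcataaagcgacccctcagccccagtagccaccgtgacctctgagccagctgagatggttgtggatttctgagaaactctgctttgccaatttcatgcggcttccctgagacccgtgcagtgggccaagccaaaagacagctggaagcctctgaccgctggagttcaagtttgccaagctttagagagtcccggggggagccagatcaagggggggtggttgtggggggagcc
Col6a6: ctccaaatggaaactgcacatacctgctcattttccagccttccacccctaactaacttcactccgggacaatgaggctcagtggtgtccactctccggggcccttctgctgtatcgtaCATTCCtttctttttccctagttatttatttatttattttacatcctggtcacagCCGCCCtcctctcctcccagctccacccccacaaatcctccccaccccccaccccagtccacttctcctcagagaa
The Col6a1 window held 1 AP-1 match, 99 bases before the start, a motif present in 6.34% of the 33469 promoter windows of this length. The Col6a6 window held 1 TEAD match (131 bases before the start, found in 12.1% of windows) and 1 GC box (76 bases before it, found in 30.5%), and LOC103693167 reaches into this window. None of the motifs was found in the Col6a5 window or in those of Col6a3 and Col6a4, and TATA box and C/EBP matches are present in 12.9% and 9.22% of all windows. A match describes letters only.

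Counts on genes ranged from 12699204 to 23397754 per library, so that counting error was small for Col6a1, Col6a2, Col6a3 and Col6a6 (322 counts or more in every library) and large for Col6a4 (median 9 counts) and Col6a5 (median 6 counts). Levels are given as counts scaled to library size (CPM) with TMM factors, which correct for differences in library composition, and without gene lengths, so they compare 1 chain between samples and not chains with each other. The cardiomyocyte list, 12 genes such as Myh6 and Tnnt2, was found in all libraries, and its summed level ranged from 28750 to 104500 CPM in the sham libraries and down to 513 CPM in the border zone of cell sheet heart 1, where the other cell sheet border libraries had 12010 CPM or more. Heart 5 of the sham group stood apart from the other sham hearts in all 3 zones, with the lowest cardiomyocyte sums and with macrophage sums of 12500, 12540 and 7265 CPM in its infarct, border and remote libraries, against group medians of 613, 663 and 389. In the cell sheet group, the remote library of heart 1 stood apart, with a myofibroblast sum (10 genes such as Postn and Acta2) of 5223 CPM against a median of 425.5. Results that use either heart are given with and without it where that changes a call, a direction or a value by over 1.5 times, and the part of these hearts' composition in the results was not tested.

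**Figure D1:**
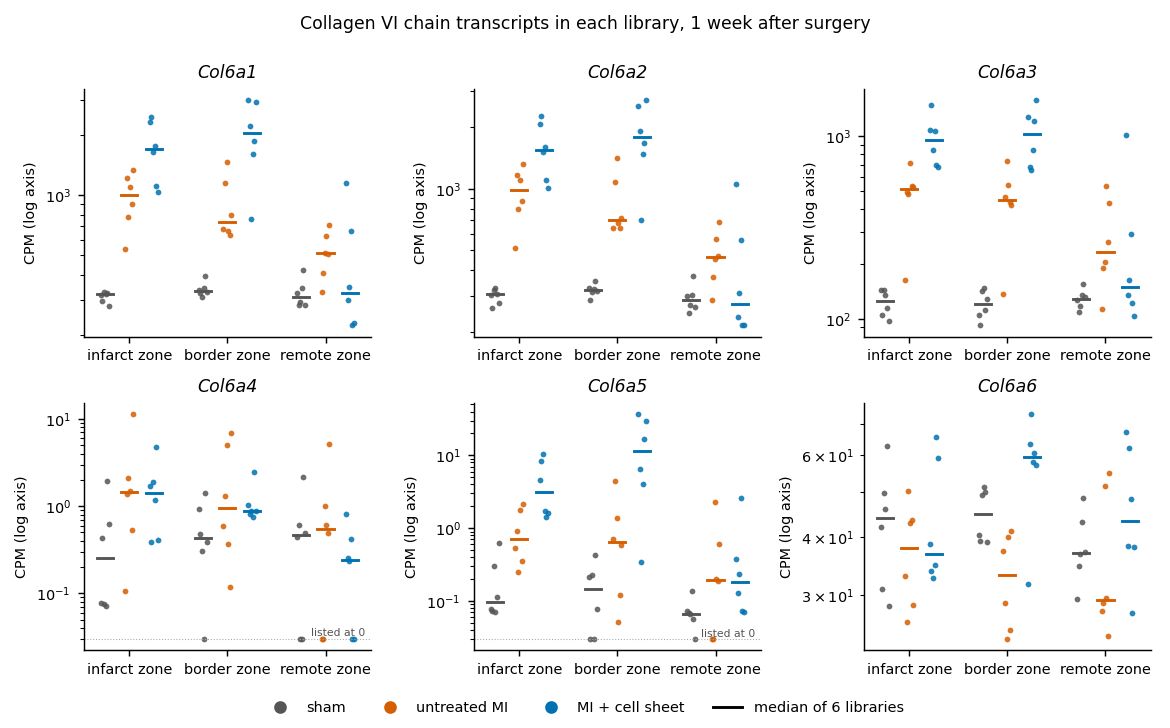
Each panel plots the CPM of 1 chain (log axis) in the 54 libraries by zone, with sham, untreated MI and MI with cell sheet side by side, a point per library a bar at the median of 6, and libraries at 0 drawn on a dotted line at the foot. In the infarct and border zones the medians of Col6a1, Col6a2 and Col6a3 go up in steps from sham (Col6a1 in the infarct zone 318 CPM) through MI (1002) to cell sheet (1708), whereas the Col6a6 points of all groups lie between 24.1 and 73.4 CPM.

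Col6a1, which encodes the alpha-1 chain that every collagen VI trimer contains, was nearly even across the sham hearts. Its lowest, median and highest levels there were 279.9, 318 and 328 CPM in infarct, 309.9, 332 and 396 in border and 281, 309 and 423 in remote zones. In untreated MI hearts the same 3 values were 539, 1002 and 1336 CPM in infarct, 636, 738 and 1461 in border and 326, 511 and 706 in remote zones. All 6 MI libraries lay above all 6 sham libraries in the infarct and border zones, while 4 of 6 did in the remote zone. In cell sheet-treated hearts the values were 1039, 1708 and 2472.5 CPM in infarct, 758, 2047 and 2993 in border and 223, 322 and 1153 in remote zones. The remote value of 1153 belongs to heart 1, and the others of that group were at 665 CPM or below. Ordered by their means, the 9 groups ran from the border and infarct zones of cell sheet hearts through the infarct, border and remote zones of MI hearts and the remote zone of cell sheet hearts to the 3 sham groups, and every pair of neighbours in this order overlapped in range.

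Col6a2, the alpha-2 chain and the constant partner of Col6a1 in the trimer, followed the same course. In the sham hearts its lowest, median and highest levels were 261, 304 and 325 CPM in infarct, 284, 319 and 352 in border and 247, 284 and 375 in remote zones. In MI hearts they were 512, 987 and 1323 CPM, 639.7, 699 and 1408 CPM, and 285, 461 and 684 CPM in the infarct, border and remote zones. As for Col6a1, sham and MI libraries were fully apart in the infarct and border zones. Cell sheet hearts had 1010.1, 1552 and 2265 CPM in infarct, 699.7, 1796.5 and 2708 in border and 215, 272 and 1059 in remote zones, where heart 1 again gave the highest value.

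Col6a3, the long chain that completes the classical trimer and carries endotrophin, had a wide spread between the hearts of the MI group. Sham levels (lowest, median, highest) were 97.8, 125 and 145 CPM in infarct, 92.3, 120.5 and 147 in border and 109, 129 and 155 in remote zones. In MI hearts they were 163, 514 and 716 CPM in infarct, 137, 451 and 732 in border and 114, 234 and 533 in remote zones. Heart 1 of the MI group gave the lowest value in each zone, and its border library lay within the sham range. Cell sheet hearts had 679, 953 and 1485 CPM in infarct, 651, 1028 and 1577 in border and 104, 149 and 1019 in remote zones. Again the value of 1019 CPM belongs to heart 1, and the next highest remote value of that group was 293 CPM.

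The comparison of MI with sham hearts asks what infarction alone did to each chain, and the rule that chose the chains did not use it. That rule did use the MI infarct and border libraries, so no comparison here that holds them is free of the choice. In the infarct zone Col6a1, Col6a2 and Col6a3 rose by a log2 fold change of 1.65 ± 0.20 (SE; adjusted p = 0.000132, edgeR's quasi-likelihood test), 1.69 ± 0.20 (adjusted p = 0.000136) and 1.98 ± 0.28 (adjusted p = 0.000332). They made up 3 of 5 tested chains, and 22.7% of all 15758 tested genes were called higher there. The same 3 chains rose in the border zone by 1.41 ± 0.22, 1.44 ± 0.21 and 1.91 ± 0.31 (adjusted p = 0.000882, 0.000652 and 0.00112), which is 3 of 5 chains against 18.4% of 15641 genes. In the remote zone they rose by 0.66 ± 0.18, 0.68 ± 0.19 and 1.16 ± 0.30 (adjusted p = 0.0166, 0.0183 and 0.0148), 3 of 4 chains against 11.7% of 15294 genes. Without sham heart 5 the remote values were 0.76, 0.78 and 1.23 and all 3 calls held in each zone. In a single fit over all 9 groups, the remote changes of Col6a1 and Col6a2 no longer passed (adjusted p = 0.104 and 0.0884). In bulk tissue, fewer cells of a type and less RNA per cell cannot be told apart. The myofibroblast list moved with these results: 10, 9 and 9 of its 10 genes rose in the infarct, border and remote zones, none of them was at 0 in a whole group, and its summed level went from 100 to 687 CPM in sham to 1402 to 5203 CPM in MI infarct zones and from 113 to 803 CPM to 486 to 2879 CPM in remote zones. Of 10 macrophage genes 6, 7 and 3 rose in the same zones, with summed levels of 2636 to 15040 CPM in MI infarct and 3123 to 10950 CPM in MI border zones, against sham medians of 613 and 663 CPM. Of 6 tested adipocyte genes 5, 4 and 2 fell. All 12 cardiomyocyte genes fell in the infarct and border zones and 7 fell in the remote zone. Over all genes, 4286 of 15758, 3634 of 15641 and 2170 of 15294 fell in the infarct, border and remote zones. The 12-gene fibroblast list had median sums of 5133, 5735 and 4014 CPM in sham infarct, border and remote zones. In MI hearts these sums were 5087, 4524 and 4185 CPM. The part of these cell types in the collagen VI changes was not tested.

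**Figure D2:**
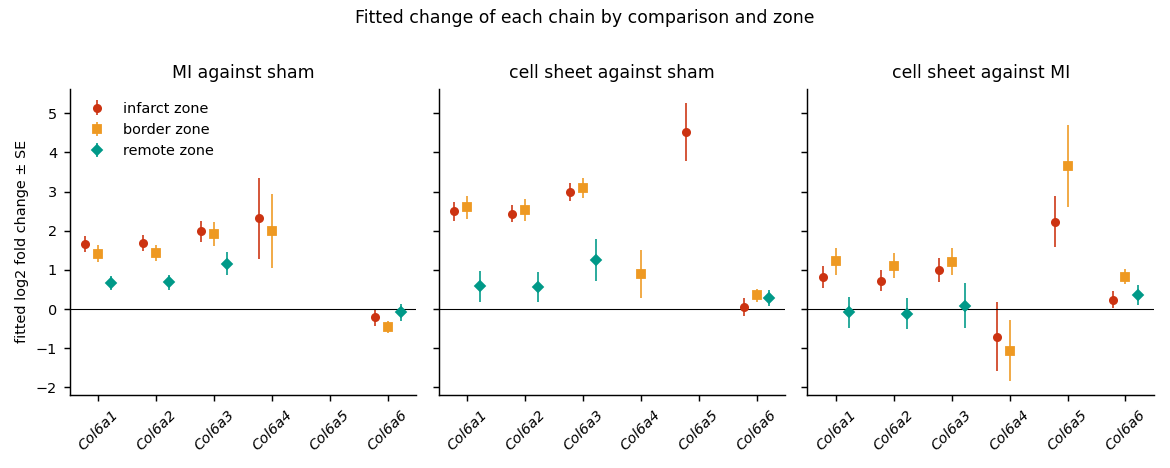
Fitted log2 fold change of each chain (vertical axis, points with SE bars) for MI against sham, cell sheet against sham and cell sheet against MI, with infarct, border and remote zones as separate markers. Chains that did not pass the filter on low counts in a comparison have no marker. Col6a1, Col6a2 and Col6a3 lie together in each comparison (1.65, 1.69 and 1.98 for MI against sham in the infarct zone) while Col6a6 lies lower (-0.21), with -0.45 for MI against sham in the border zone and 0.83 for cell sheet against MI there.

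The rise with MI was larger in the infarct than in the remote zone for each of the 3 chains, by 0.97 ± 0.17 for Col6a1, 0.99 ± 0.16 for Col6a2 and 0.90 ± 0.21 for Col6a3 on the log2 scale (interaction with the heart as a block, adjusted p = 0.00207, 0.00151 and 0.00798). This was 3 of 5 chains, and 13.6% of 16445 genes had a higher effect in the infarct zone. Without the block the Col6a3 difference was 0.83 (adjusted p = 0.209). Between the border and remote zones the differences were 0.69 ± 0.26, 0.72 ± 0.27 and 0.77 ± 0.30 and did not pass (adjusted p = 0.14, 0.139 and 0.148), in a comparison where 0% of 16475 genes did and 3995 had an unadjusted p under 0.05, the 3 chains included. Between infarct and border zones 0 of 6 chains and 0% of 16766 genes passed with edgeR, 0 chains and 1430 genes had an unadjusted p under 0.05, and the chains' differences were 0.28 or less except for Col6a4 (0.53 ± 0.85).

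The zones of each treatment group were compared without the heart as a block unless stated, although they come from the same hearts. In sham hearts 0 of 4 tested chains differed between infarct and remote zone, where 7.17% of 15077 genes did, and 0 of 4 between border and remote zone, where 2.04% of 15074 did. No chain had an unadjusted p under 0.05 or a DESeq2 call in either of these. With the heart as a block, which took account of the shared animal, 4878 of 15077 and 3880 of 15074 genes were called for the infarct and the border zone, and 1 chain, Col6a6, was higher in the border than in the remote zone, by 0.24 ± 0.07 (adjusted p = 0.0308). The Col6a1 level of the infarct zone over that of the remote zone of the same heart ran from 0.769 to 1.12 in the sham group, from 1.52 to 3.015 (median 1.77) in the MI group and from 2.03 to 8.28 (median 4.67) in the cell sheet group. All 6 MI hearts and all 6 cell sheet hearts had more Col6a1 in the infarct than in the remote zone.

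In MI hearts, Col6a1 and Col6a2 were higher in the infarct than in the remote zone by 0.94 ± 0.24 and 1.04 ± 0.25 (adjusted p = 0.0145 and 0.0127), 2 of 5 chains against 18% of 15901 genes. Col6a3 (0.76 ± 0.38, adjusted p = 0.13) did not pass, but did with the heart as a block (0.82 ± 0.18, adjusted p = 0.0122). Without MI heart 2 none of the 3 passed, and without MI heart 1 all 3 did. The border zone differences were 0.80 ± 0.25 and 0.87 ± 0.25 for Col6a1 and Col6a2 (adjusted p = 0.0387 and 0.0324), again 2 of 5 chains, against 12.1% of 15738 genes. These border calls were fragile. With the heart as a block they were 0.77 and 0.85 (adjusted p = 0.0781 and 0.0753) and 0 genes of all passed, and they were also lost without any 1 of MI hearts 1, 2, 3 or 4.

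In cell sheet hearts, Col6a1 was higher in the infarct than in the remote zone by 1.83 ± 0.45, Col6a2 by 1.88 ± 0.44 and Col6a3 by 1.66 ± 0.56 (adjusted p = 0.00543, 0.00463 and 0.0232), where 30.7% of 15854 genes were called higher. In the border zone they were higher than in the remote zone by 2.12 ± 0.49, 2.12 ± 0.48 and 1.79 ± 0.57 (adjusted p = 0.0104, 0.0103 and 0.0259), against 24.6% of 15904 genes. The infarct and border libraries of this group are among those the chains were chosen by, and only the remote libraries were not used. The p-values and calls of these zone differences are therefore not free of that choice. Col6a4 in the border zone (1.94 ± 0.65) and Col6a5 in the border (4.73 ± 1.10) and infarct zones (2.97 ± 0.89) passed the filter on low counts through those libraries and are given without a test. The Col6a3 calls leaned on single hearts. Leaving out each heart in turn, Col6a3 stayed called in 2 of 6 fits for the infarct zone (adjusted p up to 0.0844) and in 1 of 6 for the border zone (up to 0.101), and all 3 border calls were lost without heart 2 or without heart 6. In the infarct zone Col6a1 and Col6a2 stayed called in 6 of 6 fits. Without heart 1, whose remote library stood apart, the Col6a3 differences were 2.57 ± 0.34 and 2.63 ± 0.34, and Col6a6 was then higher in the border zone (0.58 ± 0.18, adjusted p = 0.0188). With the heart as a block, all 3 chains were past the threshold in both zones.

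**Figure D3:**
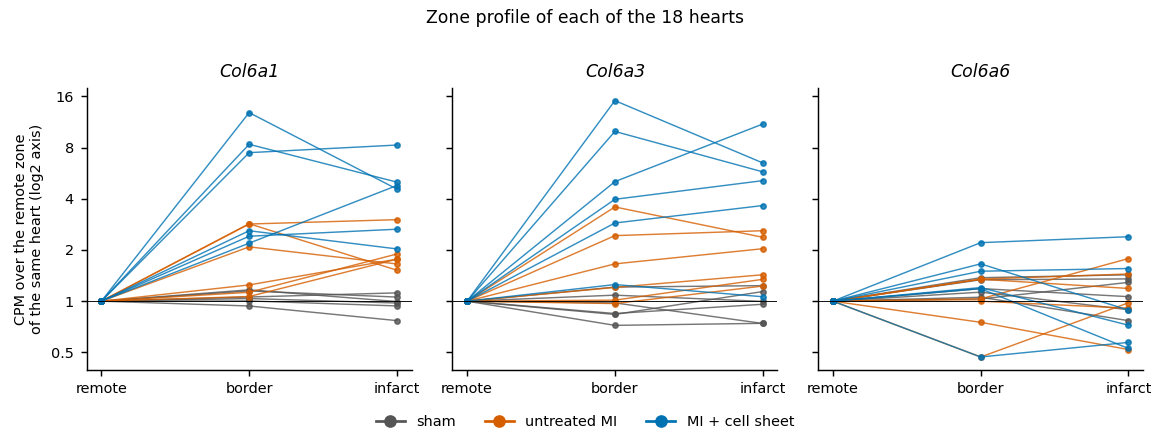
Lines join the remote, border and infarct zones of each of the 18 hearts, plotted as CPM over the remote zone of the same heart (log2 axis) for Col6a1, Col6a3 and Col6a6. Sham lines stay near 1 (Col6a1 infarct zone 0.769 to 1.12), MI lines for Col6a1 in the infarct zone reach at most 3.015 and cell sheet lines 8.28, while Col6a6 lines go both up and down in each treatment group.

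The comparison by which the chains were chosen sets cell sheet-treated against untreated MI hearts. In the border zone, Col6a1, Col6a2 and Col6a3 were higher with the cell sheet by 1.22 ± 0.34, 1.11 ± 0.32 and 1.21 ± 0.35 on the log2 scale, Col6a5 by 3.65 ± 1.04 and Col6a6 by 0.83 ± 0.19, and Col6a4 differed by -1.06 ± 0.78. By the choice of the chains, their 5 calls of 6 in this zone are no result (8.47% of 16272 genes were called higher), and 5 of 6 cell sheet libraries lay above the highest MI library for Col6a1, Col6a2 and Col6a6. In the infarct zone the differences were 0.82 ± 0.27, 0.73 ± 0.26 and 1.00 ± 0.30 for Col6a1, Col6a2 and Col6a3, 2.23 ± 0.66 for Col6a5, 0.24 ± 0.22 for Col6a6 and -0.70 ± 0.89 for Col6a4. There edgeR called 0 of 6 chains and 0% of 16196 genes, with 4 chains and 1341 genes at an unadjusted p under 0.05, and DESeq2 called 0 chains and 55 genes. With the infarct and border counts of each heart summed, the 5 calls of 6 are likewise fixed by the choice (6.02% of 17985 genes were called higher), and the differences were 1.02 ± 0.21, 0.92 ± 0.20 and 1.11 ± 0.27 for Col6a1, Col6a2 and Col6a3, 3.25 ± 0.56 for Col6a5 and 0.52 ± 0.13 for Col6a6. The difference of the cell sheet effect between border and infarct zones was 0.37 ± 0.44 for Col6a1, 0.34 ± 0.42 for Col6a2 and 0.24 ± 0.37 for Col6a3, and edgeR called 0 of 6 chains and 0% of 17275 genes (0 chains and 2012 genes at an unadjusted p under 0.05).

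The border calls changed when single hearts were left out. Leaving out each heart in turn left between 1 and 5 chains called in the border zone: 1 without MI heart 5 or 6 or without cell sheet heart 6, 2 without MI heart 1 or 4 or without cell sheet heart 5, and 3 without cell sheet heart 1 or 2. The calls over all genes in these fits are not given here, so the loss is not read as particular to the chains. Fold changes kept their direction. Of the 10 myofibroblast genes, 0 were called in the border zone (median log2 fold change -0.06), with summed levels of 1197 to 6510 CPM in MI and 1909 to 6350 CPM in cell sheet hearts. Of 10 tested adipocyte genes 3 were called higher with the cell sheet (median 1.78), and of 10 macrophage genes 1 was called lower (median -0.15). Of 10 mural genes, 1 of them (Cspg4) also a collagen VI receptor, 5 were called higher (median 0.47), with sums of 1127 to 2079 CPM in MI and 1577 to 3025 CPM in cell sheet hearts, and of 9 endothelial genes 1 was (median 0.12), with sums of 997 to 1437 CPM and 1305 to 1669 CPM. Over all 16272 genes, 8.47% were called higher and 1543 genes lower. The adipocyte sums were 584 to 2251 CPM in MI and 1376 to 2352 CPM in cell sheet hearts, and the macrophage sums 3123 to 10950 CPM and 2046 to 7044 CPM. The sums of the 12-gene fibroblast list were 3001 to 5488 CPM and 3114 to 4328 CPM. The part of these cells in the collagen VI values was not tested.

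In the remote zone, which the choice of the chains did not use, no difference between cell sheet and MI hearts was detected. The log2 fold changes were -0.08 ± 0.39 for Col6a1, -0.13 ± 0.40 for Col6a2, 0.08 ± 0.57 for Col6a3 and 0.37 ± 0.26 for Col6a6 (adjusted p = 0.894, 0.845, 0.929 and 0.321), with 0 of 4 chains called by edgeR or DESeq2 or at an unadjusted p under 0.05, while 17.1% of 15374 genes were called. Cell sheet heart 1 set the size of these values. Without it they were -0.56 ± 0.28, -0.63 ± 0.27, -0.84 ± 0.37 and 0.23 ± 0.24, still short of the threshold (adjusted p = 0.119, 0.0779, 0.0808 and 0.474), and 6450 of 15502 genes were called.

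Cell sheet-treated hearts were also set against sham hearts. In the infarct zone Col6a1, Col6a2 and Col6a3 rose by 2.49 ± 0.24, 2.44 ± 0.22 and 3.00 ± 0.23 (adjusted p = 1.96e-05, 1.51e-05 and 6.75e-06), with no overlap between the 6 cell sheet and 6 sham libraries, and 28.6% of 15687 genes were called higher. Col6a5, which passed the filter on low counts only through the cell sheet libraries and is therefore given without a test, differed by 4.53 ± 0.75. In the border zone Col6a1, Col6a2 and Col6a3 rose by 2.60 ± 0.30, 2.52 ± 0.29 and 3.09 ± 0.25 (adjusted p = 5.57e-05, 5.27e-05 and 9.82e-06), 3 of 5 chains against 20.4% of 15960 genes, again without overlap. These infarct and border comparisons share the cell sheet libraries with the comparison the chains were chosen by. Their p-values and calls are therefore not free of that choice, and nothing is read from the number of chains called. In the remote zone the values were 0.58 ± 0.39, 0.56 ± 0.39, 1.25 ± 0.53 and, for Col6a6, 0.28 ± 0.21 (adjusted p = 0.661, 0.672, 0.465 and 0.714), and 0 of 4 chains passed with edgeR or DESeq2, 1 of them, Col6a3, at an unadjusted p under 0.05, in a comparison where 0.0066% of 15157 genes passed. Cell sheet heart 1 set the size of these remote values too. Without it they were 0.09 ± 0.27 for Col6a1, 0.04 ± 0.25 for Col6a2, 0.31 ± 0.23 for Col6a3 and 0.13 ± 0.19 for Col6a6.

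Col6a5, one of the chains thought to replace Col6a3 in the trimer, was nearly absent from sham hearts and was counted most in the border zone of cell sheet hearts. Its counts in sham hearts 1 to 6 were 1, 1, 4, 1, 2 and 7 in infarct, 3, 0, 3, 0, 9 and 1 in border and 1, 1, 1, 2, 1 and 0 in remote zones. In MI hearts they were 10, 23, 5, 40, 8 and 47 in infarct, 12, 101, 30, 1, 2 and 11 in border and 0, 0, 36, 3, 3 and 10 in remote zones. In cell sheet hearts they were 112, 192, 266, 37, 29 and 28 in infarct, 972, 144, 7, 93, 406 and 595 in border and 7, 2, 4, 44, 1 and 1 in remote zones. The border zone of cell sheet heart 1 alone held 972 of the 3320 Col6a5 counts of all libraries, and that of heart 3, with 7 counts, was no higher than the sham range. Of the 3 hearts with the highest border counts (1, 6 and 5), only heart 1 was also among the 3 with the highest infarct counts (3, 2 and 1). The chain did not pass the filter on low counts for MI against sham in any zone or for cell sheet against sham in the border zone. Its MI infarct levels (0.248 to 2.15 CPM, median 0.719) overlapped those of sham (0.0711 to 0.619 CPM, median 0.0956), with 3 of 6 MI libraries above all sham libraries. In the 3 alternative fits that kept it for MI against sham in the infarct zone, its log2 fold change was 2.26 to 2.28, and the adjusted p, 0.00656 to 0.0579, fell on both sides of the threshold. Without sham heart 5 it passed the filter there mostly through the MI libraries, so that difference, 2.15 ± 0.75, is given without a test. For cell sheet against sham in the border zone the 3 fits that kept it gave 6.47 to 6.58, and it also passed the filter without sham heart 5, at 7.14 ± 1.29. These border values rest on the cell sheet libraries by which the chain was chosen and are given without a test.

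Col6a4, the third chain of this kind on chromosome 8, had 1364 counts in all 54 libraries and was listed at 0 in 7 of them. Its highest levels came from single hearts. In the MI group heart 6 had 11.3, 6.94 and 5.20 CPM in the infarct, border and remote zones, while the group medians were 1.43, 0.957 and 0.551 CPM. In the sham group heart 5, the heart that stood apart, had 1.95, 1.43 and 2.17 CPM against medians of 0.257, 0.433 and 0.469. For MI against sham its log2 fold changes of 2.32 ± 1.03 (infarct zone) and 1.98 ± 0.95 (border zone) did not pass (adjusted p = 0.0788 and 0.109). Without sham heart 5 they were 3.47 ± 1.10 and 2.52 ± 1.02. The chain then passed the filter on low counts mostly through the MI libraries, so these 2 values are given without a test. With all hearts, Col6a4 in the infarct zone is called by DESeq2 (2.37, adjusted p = 0.0359). Cell sheet infarct zones had 0.388 to 4.80 CPM and their border zones 0.742 to 2.45 CPM, within the range of the MI hearts. Against sham in the border zone the difference was 0.90 ± 0.61 (adjusted p = 0.247).

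Col6a6, the remaining alternative chain, was counted in every library and kept to between 24.1 and 73.4 CPM. Its lowest, median and highest levels in sham hearts were 28.5, 43.9 and 62.6 CPM in infarct, 39.1, 44.8 and 51.1 in border and 29.4, 36.9 and 48.5 in remote zones. In MI hearts they were 26.3, 37.8 and 50.2 CPM, 24.1, 33.1 and 41.2 CPM, and 24.4, 29.3 and 54.9 CPM in the same order of zones. In the border zone, 4 of 6 MI libraries lay below all sham libraries, and the MI border libraries are among those the chains were chosen by. Col6a6 fell there by 0.45 ± 0.15 on the log2 scale (adjusted p = 0.0321), when 23.2% of genes were called lower. This was the only fall among the chains in MI against sham, and it did not pass with no filter, with library sizes without TMM, with all 9 groups in a single fit or with the replicate number as a block (adjusted p = 0.0578, 0.194, 0.092 and 0.0724), and passed in 7 of 12 fits with a heart left out. In the infarct and remote zones its changes were -0.21 ± 0.22 and -0.09 ± 0.21 (adjusted p = 0.425 and 0.795), and 0.039 and 0.042 with library sizes without TMM. Without sham heart 5 the 2 changes were -0.07 ± 0.20 and 0.003 ± 0.20. Cell sheet hearts had 32.7, 36.7 and 65.7 CPM in infarct, 31.6, 59.3 and 73.4 in border and 27.4, 43.3 and 67.3 in remote zones. Against sham their differences were 0.05 ± 0.22, 0.35 ± 0.17 and 0.28 ± 0.21 (adjusted p = 0.86, 0.108 and 0.714). The infarct value was 0.15 ± 0.22 without sham heart 5. Without cell sheet heart 1 the infarct and remote values were 0.09 ± 0.24 and 0.13 ± 0.19. In the border zone heart 1 was the low library of the cell sheet group, at 31.6 CPM, and without it Col6a6 differed from sham by 0.47 ± 0.10. The cell sheet border libraries are among those the chains were chosen by, so this last value is given without a test.

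Set chain against chain within a library, Col6a2 kept a nearly fixed proportion to Col6a1. The count ratio (0.5 added to each count) ran from 0.79 to 1.02 over the 54 libraries, and the mean log2 ratio differed between MI and sham by 0.03, 0.03 and 0.01 in infarct, border and remote zones (adjusted p = 0.791, 0.797 and 0.887, exact permutation test, 2-sided, 17 ratio tests). The ratio of Col6a3 to Col6a1 ranged more widely, from 0.202 to 0.883. Its group medians were 0.388, 0.354 and 0.393 in infarct, border and remote zones of sham hearts, 0.5, 0.514 and 0.494 in MI hearts, and 0.603, 0.533 and 0.466 in cell sheet hearts. MI and sham differed by 0.28, 0.43 and 0.35 on the log2 scale and the groups overlapped (adjusted p = 0.541, 0.541 and 0.451, exact permutation test).

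The ratio of Col6a6 to Col6a3 separated sham from MI hearts. In sham hearts its median was 0.317, 0.366 and 0.314 in infarct, border and remote zones, and in MI hearts it was 0.0704, 0.0681 and 0.139. The difference of the mean log2 ratio, MI minus sham, was -2.07 (infarct zone) and -2.24 (border zone), each without overlap of the 6 and 6 libraries (adjusted p = 0.0184, exact permutation test, whose smallest unadjusted p is 0.00216). In the remote zone it was -1.12 and the groups overlapped (adjusted p = 0.0368, exact permutation test). The border gap between the groups was narrow, as the highest MI ratio was 0.272, in the heart with the lowest Col6a3, and the lowest sham ratio was 0.303. Cell sheet and MI hearts differed by 0.66 in the remote zone (adjusted p = 0.541, exact permutation test). Cell sheet hearts had, in the zones by which the chains were chosen (infarct, border), medians of 0.0373 and 0.0594. Col6a4, Col6a5 and Col6a6 together held a median of 5.40%, 5.53% and 5.20% of all collagen VI counts in sham infarct, border and remote zones, 1.72%, 1.78% and 3.07% in MI hearts, and 0.98%, 1.51% and 5.07% in cell sheet hearts. Col6a6 held most of these counts in each group, and in the cell sheet border zones, where Col6a5 was highest, the 3 chains had 158 (Col6a4), 2217 (Col6a5) and 7736 (Col6a6) counts. The ratio of Col6a4 to Col6a3 was tested in 4 comparisons and that of Col6a5 to Col6a3 in 1, none past the threshold (adjusted p from 0.843 to 0.887).

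**Figure D4:**
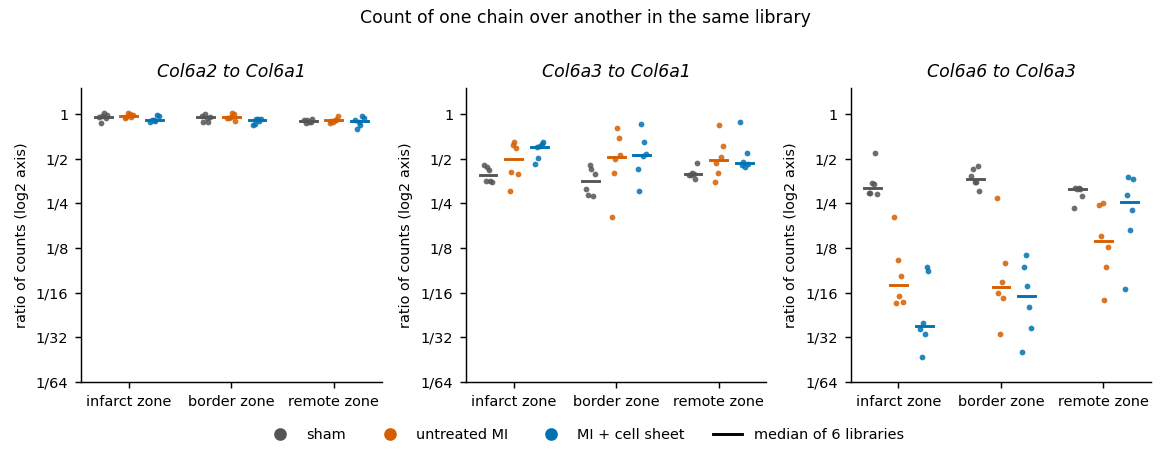
Count ratio of 2 chains in the same library (log2 axis) by zone and treatment, a point per library and a bar at the median of 6. The Col6a2 to Col6a1 points form a flat band between 0.79 and 1.02, whereas the Col6a6 to Col6a3 points of MI and cell sheet hearts fall below those of sham hearts in the infarct and border zones (sham median 0.317, MI median 0.0704 in the infarct zone).

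The genes most like each chain over the 54 libraries were found by Spearman's rho of log2 CPM among 13299 genes. The libraries are 3 zones of 18 hearts and share treatment and tissue composition, so these values describe a shared course and nothing else. Col6a1 was nearest to Col6a2 (0.99), followed by Col1a1 (0.97) and Col1a2 (0.97), the chains of fibrillar collagen I, by Ssc5d (0.96) and by Lrp1 (0.96), an endocytic receptor. The list of Col6a2 was Col6a1, Col1a1, Mrc2 (0.97), a receptor for the uptake of collagen, Lrp1 and Col1a2. Col6a3 was nearest to Antxr1 (0.94), which encodes the receptor of endotrophin, then to Col5a1 (0.94), Col1a1 (0.94), Fndc1 (0.93) and Col6a2 (0.93). Col6a6 had no close neighbour, with Srgap3 first at 0.61 before Fam120b (0.57), Trim44 (0.53) and Fam214a (0.53). Between chains, rho was 0.92 for Col6a1 with Col6a3, 0.81 for Col6a1 with Col6a5, 0.59 for Col6a1 with Col6a4 and 0.16 for Col6a1 with Col6a6. Col6a4 and Col6a5 were too low for a search of their own.

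The genes around collagen VI were followed in 3 lists. Of 9 receptors and binding partners on the cell surface, 4 rose and 1 fell in MI against sham border zones (median log2 fold change 0.65, against -0.02 over all tested genes), 3 of 8 tested rose and 1 fell in the infarct zone and 2 of 8 rose and 1 fell in the remote zone. Over all tested genes 18.4% rose and 23.2% fell in the border zone, and 22.7% and 11.7% rose in the infarct and remote zones. In the infarct and remote zones 4286 of 15758 and 2170 of 15294 genes fell. The largest rises in the border zone were those of Itga10 (2.98 ± 0.44) and Itga11 (2.85 ± 0.54), integrin chains that bind collagen, and the fall was that of Itga3 (-0.76 ± 0.17), a chain of a laminin-binding integrin. Antxr1, the nearest neighbour of Col6a3, rose by 2.16 ± 0.23, while the related Antxr2 differed by 0.00 ± 0.10. Between cell sheet and MI hearts, 3 of 9 receptors were called higher in the border zone (8.47% of all genes), 0 in the infarct zone (0% of all genes) and 1 of 8 in the remote zone (Cspg4, 0.74 ± 0.15), where 17.1% of all genes were called in either direction. The 3 were Antxr2 (0.41 ± 0.10), the proteoglycan Cspg4 (0.70 ± 0.17) and Itga3 (1.06 ± 0.15), named after their values were seen, and Antxr1 was not among them (0.70 ± 0.23, adjusted p = 0.0554).

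The list of matrix partners named 15 genes, 14 of them in the files. They rose with MI in 9 of 12 tested genes in border zones, 10 of 12 in infarct and 7 of 12 in remote zones, and none fell (medians 1.25, 1.45 and 0.90), against the same 18.4%, 22.7% and 11.7% of all genes. The largest border rises were those of Matn4 (3.39 ± 0.44), a matrilin that bridges collagen VI to other matrix, and of Fn1 (3.11 ± 0.26), fibronectin. With the cell sheet, 3 of 12 were called higher than in MI in the border zone (8.47% of all genes) and 0 in the infarct zone (0% of all genes). In the remote zone 1 was lower, as were 1044 of all 15374 genes. The 3 were the basement membrane genes Col4a1 (0.92 ± 0.27), Col4a2 (0.94 ± 0.22) and Hspg2 (1.12 ± 0.20), and the remote fall was that of the proteoglycan Dcn (-0.60), all named after their values were seen. Matn4 and the proteoglycans Bgn and Lum, which also bind collagen VI, were not among them in the border zone (-0.72 ± 0.61, 0.00 ± 0.22 and -0.38 ± 0.30).

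Genes for collagen biosynthesis and processing rose with MI almost throughout the list, 12 of 13 in the border zone, 12 of 13 in the infarct zone, where 1 fell, and 10 of 13 in the remote zone (medians 1.18, 1.25 and 0.62), where 18.4%, 22.7% and 11.7% of all genes rose. P4ha3, a prolyl hydroxylase chain, had the largest border rise (4.11 ± 0.60), followed by Plod2, a lysyl hydroxylase (2.71 ± 0.34). The exception was Colgalt2, a collagen galactosyltransferase, at -0.66 ± 0.28 in the border zone (adjusted p = 0.0794). Colgalt2 fell by 0.72 ± 0.25 in the infarct zone, where 4286 of 15758 genes were called lower. Between cell sheet and MI hearts 0 of the 13 were called in any single zone, where the medians were 0.08 in the border, 0.21 in the infarct and -0.32 in the remote zone. Of all genes, 2922 of 16272 were called in the border, 0 of 16196 in the infarct and 2623 of 15374 in the remote zone. On the summed infarct and border counts 1 was called, Mmp2 (0.55), a gelatinase, where 6.02% of 17985 genes were called higher.

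**Figure D5:**
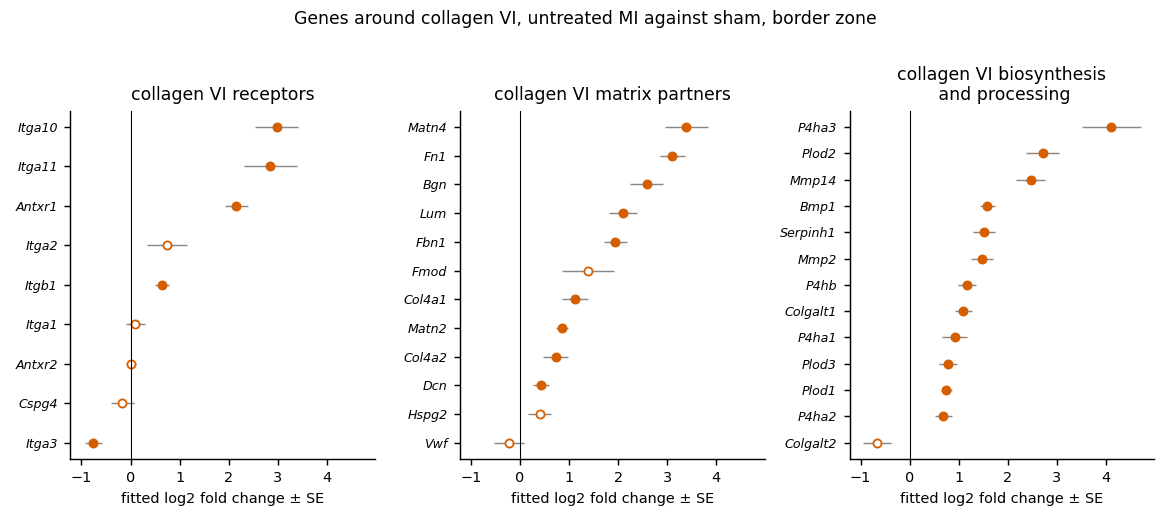
Fitted log2 fold change with SE bars (horizontal axis) of each tested gene on the 3 lists in border zones of MI against sham hearts, filled points passing an adjusted p of 0.05 and open points not. Of the receptors 4 rose and Itga3 fell (-0.76), of the matrix partners 9 rose and of the biosynthesis genes 12 rose, up to P4ha3 at 4.11.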

How the data were processed

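PolyA RNA of 54 left ventricular pieces was sequenced. The authors aligned reads with STAR v.2.5.4 to mRatBN7.2, assigned them to genes of Annotation Release 108 and deposited raw counts per gene and library. Which program counted the reads, and whether by strand, is not given in the sources used here. Another 5 summary lines per file, 17.0% to 42.8% of a library's counts, were left out.

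The collagen VI genes and all lists were chosen with earlier results of these data known. Counts were tested with edgeR 4.0.16 in R 4.3.3 (quasi-likelihood test, TMM factors, filterByExpr, Benjamini-Hochberg adjustment over all genes tested, threshold 0.05) on the libraries of each comparison, and the difference of an effect between zones with the heart as a block. Zones of a treatment group were compared without the block, with it as an alternative. The code was tested on simulated data. Ratios used 0.5 added counts and an exact permutation test. Alternatives were DESeq2 1.42.0, other filters and scaling, all 9 groups in a single fit, a replicate block and leaving out each heart. Same-numbered libraries of different zones come from the same heart by their titles and the methods. Across treatments the numbers mark different rats, and correlations of same-numbered deviations ranged from -0.628 to 0.511. All 135 pairs of libraries within a group differed beyond sampling noise (chi-square per degree of freedom 7.97 or more).

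The text names the 6 chains throughout, the 5 genes of highest rho for each chain with a median count of 10 or more (1 of them is not reported here), and from each list the 2 largest rises and falls past the threshold in MI against sham border zones.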

Additional observations from a re-analysis of the deposited data

Results flagged for a closer look

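Of 54 groups of 6 libraries (a chain in a zone of a treatment), 11 had a library whose gap to the next was large for the range of its group. Chance flags about 1 in 20 groups of independent, normally distributed values. Most flags were of Col6a4 and Col6a5, whose low counts are skewed, and zones share hearts, so the 11 are not read as an excess. Heart 5 of the sham group gave 3 of them, with Col6a1 at 395.9 CPM in the border zone and Col6a4 at 1.95 CPM in the infarct and 2.17 CPM in the remote zone. Cell sheet heart 1 was high for Col6a3 in the remote zone, at 1019.0 CPM. Col6a4 was also high in MI heart 6, at 11.3 CPM in the infarct and 5.20 CPM in the remote zone, and in cell sheet heart 5, at 4.80 CPM in the infarct and 2.45 CPM in the border zone. Col6a5 was high in MI heart 2 in the border zone (4.46 CPM), in MI heart 3 in the remote zone (2.28 CPM) and in cell sheet heart 4 in the remote zone (2.64 CPM).

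The effect of MI differed between zones for 3 chains by the test of the difference itself. It was larger in the infarct than in the remote zone by 0.97 for Col6a1, 0.99 for Col6a2 and 0.90 for Col6a3 on the log2 scale.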

How the results depend on the processing

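Of the chains' fitted changes under alternatives that kept all hearts, 451 counted as kept, 10 lost and 4 gained a call and 5 changed sign. A kept change had the same direction and side of the threshold. For cell sheet against MI in the infarct and border zones, single or summed, it only moved by less than the spread between libraries. Calls lost in those comparisons are therefore not among the 10. The cause of each change named here was not tested. Counts of chains called that moved by over 1.5 times were 5 with DESeq2 for MI against sham in the infarct zone, 1 with all 9 groups in a single fit for the remote zone, and 3 with a minimum of 10 counts in every library for border against remote zone in cell sheet hearts, where fewer chains were tested. Library sizes without TMM turned the sign of Col6a6 for MI against sham in the infarct (0.039) and remote zones (0.042), for infarct against remote zone in cell sheet hearts (0.095) and for the infarct to remote difference of the MI effect (0.069). With 5 counts added, the log2 ratios to Col6a3 in MI against sham infarct zones turned to -0.94 for Col6a5 and -0.72 for Col6a4.

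With the replicate number as a block, which only numbers different rats, 0 chains were called for cell sheet against MI in the border zone and 1 on the summed zones. Calls over all genes also fell, to 1214 of 16272 (2922 without the block) and 477 of 17985 (2179 without it). Under this block Col6a3 turned to -0.46 in the remote zone. The Col6a6 to Col6a3 differences of -2.07, -2.24 and -1.12 then had adjusted p = 0.266, 0.266 and 0.354 (exact permutation test within same-numbered pairs). The infarct and border values were at the smallest p that this paired test can give. Such a p cannot pass the adjustment unless most of the 17 ratio tests are as low. No conclusion is therefore drawn from the loss of these ratio calls. With the heart as a block, 1 chain was called for border against remote zone in sham and 0 in MI hearts. The block changed the calls of Col6a6 in MI against sham border zones and Col6a3 in infarct against remote zones of MI hearts as given above.

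Leaving out 1 heart at a time gave 3 to 5 chains called for MI against sham in the infarct zone, 1 to 5 for cell sheet against MI in the border zone, 0 to 3 and 0 to 2 for infarct and border against remote zone in MI hearts, and 2 to 5 and 0 to 6 for the same in cell sheet hearts. These counts include Col6a4 and Col6a5 where they passed the filter on low counts. Calls over all genes in these fits are not given here, so the counts are not read as particular to the chains. Col6a6 changes spanned -0.24 to 0.0047 for MI against sham in the remote zone, -0.090 to 0.15 for cell sheet against sham in the infarct zone, -0.092 to 0.28 and -0.26 to 0.057 for infarct and border against remote zone in MI hearts, -0.35 to 0.10 for infarct against remote zone in cell sheet hearts and -0.21 to 0.15 for the infarct to remote difference. Cell sheet against MI in the remote zone spanned -0.56 to 0.062 for Col6a1, -0.63 to 0.012 for Col6a2 and -0.84 to 0.35 for Col6a3. In sham hearts, infarct against remote zone spanned -0.10 to 0.035, -0.013 to 0.12 and -0.14 to 0.029 for the same chains, and border against remote zone -0.17 to 0.0042 for Col6a3. The infarct to border difference spanned -0.86 to 0.58 for Col6a5, and the border to infarct difference of the cell sheet effect -0.024 to 0.47 for Col6a3 and -0.43 to 0.27 for Col6a4. Log2 ratios spanned -0.0072 to 0.023 and -0.055 to 0.0027 for Col6a2 to Col6a1 (MI against sham and cell sheet against MI, remote zone), -0.11 to 0.19 for Col6a3 to Col6a1 (cell sheet against MI, remote zone), -0.089 to 0.59 for Col6a5 to Col6a3 (MI against sham, infarct zone), -1.30 to -0.87 for Col6a6 to Col6a3 (MI against sham, remote zone) and -0.45 to 0.69, -1.05 to 0.33 and -1.15 to 0.045 for Col6a4 to Col6a3 (MI against sham, infarct, border and remote zones).

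Depth limits Col6a4 and Col6a5, with medians of 9 and 6 counts per library. No gene lengths were used, so levels are not compared between chains. Human reads of the sheet were not analysed here.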
